A study of Mus musculus with 8 samples.

Results

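The keratins of Min6 cells, a mouse insulinoma line with beta cell properties, were examined 16 h after transfection with a Zac1 plasmid. The members were all genes whose symbol is Krt followed directly by a digit, which gave 52 of the 23100 genes in the deposited count table, 28 of type I and 24 of type II. The control group was Min6 cells given pRK5-NLSeGFP, which makes a nuclear green fluorescent protein, and the other group was Min6 cells given pRK5-Zac1, which makes the zinc finger transcription factor encoded by Plagl1. Both plasmids were introduced with Lipofectamine into cells grown in DMEM with serum and mercaptoethanol, so the groups share the line, the reagent and the vector backbone. Each group held 4 libraries, numbered 1, 2, 3 and 5, which the series calls biological replicates without saying what was repeated, so the p-values measure the spread between these libraries. The share of cells that took up a plasmid is not given in the sources used here, and every value is an average over transfected and untransfected cells.

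Keratins are the intermediate filament proteins of epithelial cells. A type I and a type II chain pair as a heterodimer, and filaments form only from such pairs. Simple epithelia such as gut, liver and pancreas use Krt8 with Krt18, often with Krt7, Krt19 or Krt20, whereas stratified epithelia use Krt5 with Krt14 in the basal layer and Krt1 with Krt10 above it, and hair uses a large set of its own. In islet beta cells Krt8 and Krt18 are the keratins usually described. The genes lie in 2 clusters in the mouse, and in the table matched to RefSeq by gene ID 27 members fell on chromosome 11 and 24 on chromosome 15.

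The libraries held 30.5 to 42.4 M counts (M, 1e6). Plagl1 stood at 67.7 to 85.4 CPM, a unit that divides a gene's counts by the library's total in M, in the controls and at 4117 to 5786 CPM with Zac1, a log2 difference of 5.90 ± 0.13 (SE, edgeR adjusted p = 1.45e-09, exact two-sided permutation p = 0.0286, the smallest that 70 assignments allow). All 12 beta cell markers were detected, with a summed level of 58503 to 74828 CPM in the controls and 60918 to 68160 CPM with Zac1, and 0 of the 12 were called (an edgeR adjusted p under 0.05) in either direction, and none had p under 0.05 before adjustment. Levels below are CPM scaled by TMM, given as mean ± SD over n = 4 libraries, and differences are log2 of Zac1 minus control ± SE.

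Min6 cells had reads for a few simple keratins in quantity and for most other members in traces. No library had a count for 8 of the 52 members, 22 had 1 to 9 counts over all 8 libraries together, 16 had 10 to 99, and 6 had 100 or more. At least 1 count was found in every library for 14 members. Only Krt7, Krt8, Krt18, Krt10 and Krt25 averaged at least 1 CPM. At the depth of the shallowest library, 3 counts correspond to 0.0982 CPM, so expression of the members without counts was not detectable at this depth.

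Krt8, the type II chain of simple epithelia, gave 131, 125, 123 and 122 CPM in control libraries 1, 2, 3 and 5, and 128, 123, 122 and 111 CPM in the Zac1 libraries of the same numbers. The groups overlapped, with a log2 difference of -0.05 ± 0.05 (edgeR adjusted p = 0.944) and a 95% interval of 0.895 to 1.04 for the fold. Krt7, a type II chain of ducts and other simple epithelia, stood at 180, 157, 161 and 142 CPM in the controls and at 170, 155, 152 and 121 CPM with Zac1. Its groups overlapped too, with a log2 difference of -0.10 ± 0.10 (edgeR adjusted p = 0.947) and a fold interval of 0.801 to 1.09. In both groups the number 5 library was the lowest for Krt7 and for Krt8.

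Krt18, the type I partner of Krt8, was far scarcer than Krt8. Its control libraries held 5.70, 6.19, 6.06 and 4.71 CPM and its Zac1 libraries 8.17, 6.01, 6.77 and 5.79 CPM. Zac1 library 1, which also had the highest Plagl1 level, was the highest for Krt18, and the other 3 Zac1 libraries lay within or just above the control range. The log2 difference was 0.24 ± 0.13 (edgeR adjusted p = 0.763), the fold interval was 0.975 to 1.43, and without Zac1 library 1 the log2 difference was 0.13 (edgeR adjusted p = 0.835). An increase of the size seen for Krt79 or Krt78 lay outside that interval.

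Per kb of transcript the control levels were 64.0 CPM for Krt8, 39.1 for Krt7, 3.94 for Krt18 and 2.55 for Krt10, using the longest protein-coding GENCODE M21 model of each gene. Per kb of coding sequence the order of the first pair turned, with 117 CPM for Krt7 and 85.2 for Krt8, so these data do not settle which of them is more abundant. Krt18 gave 4.47 CPM per kb of coding sequence and Krt10 gave 3.18, so on both scales the type II chains stood well above the type I chains. The ratio of Krt8 to Krt18 per kb of transcript was 16.9, 14.8, 14.9 and 19.0 in the controls and 11.5, 15, 13.2 and 14.1 with Zac1, and the groups overlapped. Counting all members, type II genes had 19.4 to 23.4 counts for each type I count in the controls and 16.9 to 21.2 with Zac1.

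These levels depend on which reads were counted. Of the 50-base windows of the Krt8 transcript, 29.7% also occur in transcripts of other genes, chiefly the processed copy Krt8-ps, against 0.72% for Krt18 and 0.222% for Krt7. The handling of reads that map to several places is not given in the sources used here, so the Krt8 level is uncertain, and the part of shared reads in the Krt8 to Krt18 ratio was not tested. Krt8 and Krt7 also overlap other genes on the opposite strand, over 101 and 77 bases, and the strand setting of the counting is not given. The GENCODE M21 models are of a later build than mm9, the build of the counts, so the lengths are approximate.

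**Figure D1:**
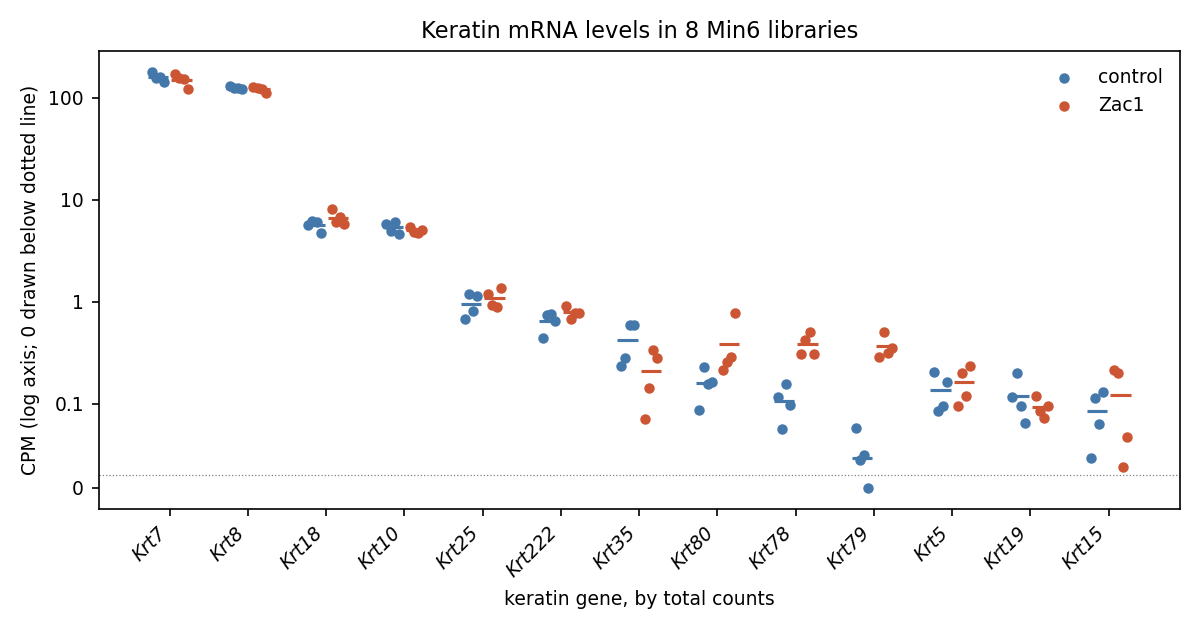
CPM of the keratins with the most counts, on a log axis, with a point for each library (blue control, orange Zac1) and a line at each group mean. Krt7 and Krt8 lie between 111 and 180 CPM, Krt18 and Krt10 between 4.61 and 8.17 CPM, and the other genes drawn at or below 1.35 CPM; a library with 0 counts is drawn under the dotted line.

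Other simple keratins were near the limit of detection. Krt19, the type I chain of pancreatic ducts, had 2 to 7 counts per library, 16 in the controls and 15 with Zac1. Krt20, of gut epithelium, had 1 count in all, and Krt23 had 0. Markers of ducts other than keratins were mixed: Cdh1, the epithelial cadherin, stood at 144 ± 9.08 CPM in controls, whereas the ductal regulator Sox9 had 4 control counts. None of the 8 tested genes of the 12 on the duct list was called, and its summed level was 664 to 753 CPM in the controls and 651 to 740 CPM with Zac1.

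Only 8 of the 52 members passed the filter on low counts and were tested, and 2 were called higher and 0 lower with Zac1 in edgeR: Krt79 and Krt78. None of the 8 fell with a raw p under 0.05 in that fit. Of all 14331 tested genes, 2.15% were called higher and 0.0349% lower. DESeq2 called 1 keratin higher and 0 lower (2.38% and 0.0558% of all genes), limma-voom called 2 and 0 (1.97% and 0.0349%), and edgeR with the replicate number as a block called 2 and 0 (3.57% and 0.809%). Krt79 and Krt78 passed the filter on low counts through the Zac1 libraries alone, so their calls among tested members carry no weight as a share. Among the 121 tested genes with a control mean under 0.2 CPM, where both lie, 80.2% were called higher. With no filter, 2 of 44 members with a count were called higher (4.55%) against 2.11% of 19900 genes, and 0 lower against 0.0302%.

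Krt79, a type II keratin of the hair follicle canal and sebaceous duct in mouse skin, had 2, 1, 1 and 0 counts in control libraries 1, 2, 3 and 5, and 12, 18, 13 and 15 counts in the Zac1 libraries of the same numbers. Every Zac1 library lay above every control library. The filter on low counts fixed this in advance, since Krt79 passed it through the Zac1 libraries alone. The levels were 0.0296 ± 0.0239 CPM and 0.366 ± 0.10 CPM, a log2 difference of 3.44 ± 0.55 (edgeR adjusted p = 0.00193). The control total was 4 counts, so the ratio of 11.9 has a 95% counting interval of 4.40 to 45.1. In bulk RNA a change in the share of cells that express a gene and a change in the amount per cell cannot be told apart.

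Krt78, a type II keratin of the upper layers of stratified epithelia, had 4, 2, 5 and 3 counts in the controls and 13, 15, 21 and 13 with Zac1. The groups did not overlap, as for Krt79. Of all tested genes 5.79% had groups that did not overlap, 4.39% with Zac1 higher and 1.4% with Zac1 lower. Both keratins passed the filter on low counts through the Zac1 libraries alone, so the filter fixed their separation and it carries no weight. The Krt78 level was 0.107 ± 0.0416 CPM in the controls and 0.387 ± 0.0962 CPM with Zac1, a log2 difference of 1.83 ± 0.40 (edgeR adjusted p = 0.0241), and the counting interval of the ratio was 2.01 to 7.02. With 1 control library left out, the edgeR adjusted p was 0.0671 (library 1), 0.108 (library 2) and 0.0719 (library 5), and with 1 Zac1 library left out it was 0.068 (library 2) and 0.0966 (library 3), so each of these fits lost the call. DESeq2 lost it too (adjusted p = 0.0552). Krt79 kept its call in each of those fits. Even with Zac1, both genes stayed far below Krt8: per kb of transcript the Zac1 levels were 0.175 CPM for Krt79 and 0.113 for Krt78, against 61.7 for Krt8.

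**Figure D2:**
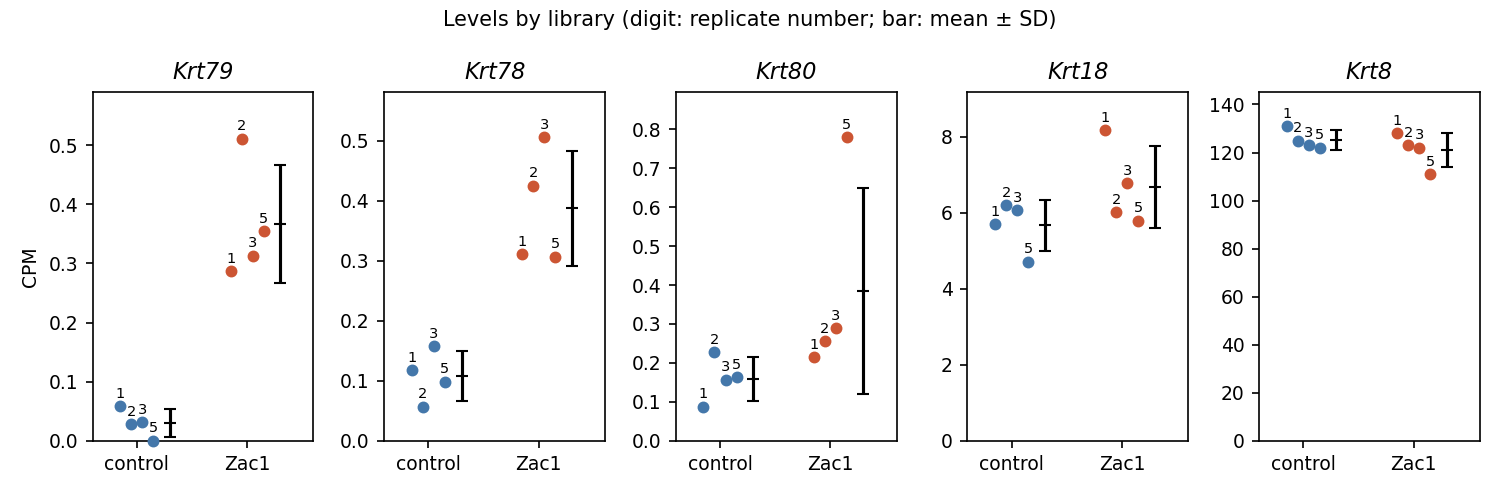
CPM of Krt79, Krt78, Krt80, Krt18 and Krt8 in each library, with the replicate number beside each point and the mean ± SD of each group in black; axes start at 0 and differ between panels. The groups are apart for Krt79 and Krt78 and overlap for Krt80, Krt18 and Krt8. The filter on low counts fixed the separation of Krt79 and Krt78 in advance.

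**Figure D3:**
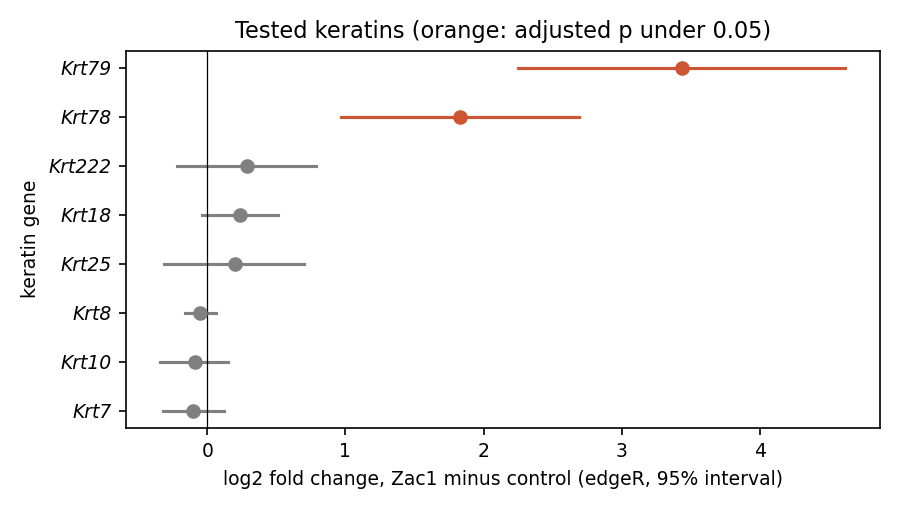
The log2 fold change, Zac1 minus control, of the 8 tested keratins with its 95% interval from the edgeR fit; orange marks an adjusted p under 0.05. Krt79 (3.44) and Krt78 (1.83) have intervals above 0, and the other 6 intervals include 0.

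Krt79 and Krt78 are neighbours on chromosome 15, at the end of the type II cluster next to Krt8 and Krt18. In RefSeq order the last members run Krt4, Krt79, Krt78, Krt8, Krt18, followed by Eif4b. Krt4, of mucosal epithelium, had 0 control counts and 3 with Zac1. Of the 12 genes flanking the cluster, 11 were tested and 1 was called higher, beside 2.15% higher and 0.0349% lower of all tested genes. That gene was A330009N23Rik, beyond the Krt80 end (log2 1.05 ± 0.25, edgeR adjusted p = 0.0376). Eif4b (-0.07 ± 0.05) and Tenc1, a tensin (0.24 ± 0.12), on the Krt18 side, were not called (edgeR adjusted p = 0.883 and 0.704). In the run of 4 neighbours, Krt79 and Krt78 were called and Krt8 and Krt18 were not. On chromosome 11, 0 of 11 tested flanking genes were called, beside the same shares of all tested genes.

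**Figure D4:**
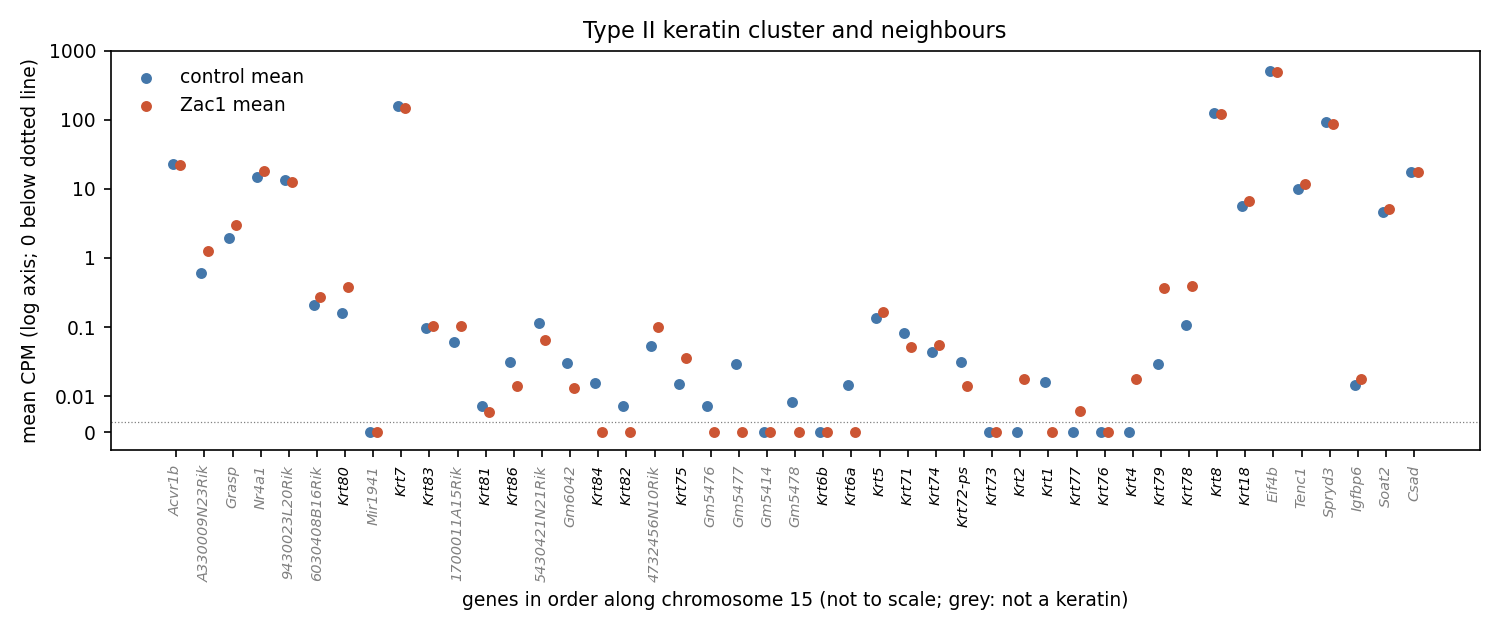
Mean CPM in controls (blue) and with Zac1 (orange) on a log axis for the keratins of chromosome 15 (black names) and neighbouring genes (grey names), in order along the chromosome and not to scale. Krt79 and Krt78 stand at 0.0296 and 0.107 CPM in controls and at 0.366 and 0.387 CPM with Zac1, beside Krt8 at 125 and 121 CPM.

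The sequences before the starts of these 4 neighbours are shown because the first pair was called and the second was not. Each is the 250 bases before the RefSeq start in GRCm38.p6, read 5′ to 3′ on the strand of the gene: Krt79 at chr15:101940325-101940574 on the minus strand, Krt78 at chr15:101954288-101954537 on the minus strand, Krt8 at chr15:102004343-102004592 on the minus strand and Krt18 at chr15:102027966-102028215 on the plus strand. Capitals mark matches to GGGGNGGGG on either strand.
Krt79: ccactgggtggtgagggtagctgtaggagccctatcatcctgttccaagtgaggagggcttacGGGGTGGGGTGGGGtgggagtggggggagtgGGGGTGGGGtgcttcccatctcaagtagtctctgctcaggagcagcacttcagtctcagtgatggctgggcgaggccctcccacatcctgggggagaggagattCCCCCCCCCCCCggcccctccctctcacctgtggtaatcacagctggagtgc
Krt78: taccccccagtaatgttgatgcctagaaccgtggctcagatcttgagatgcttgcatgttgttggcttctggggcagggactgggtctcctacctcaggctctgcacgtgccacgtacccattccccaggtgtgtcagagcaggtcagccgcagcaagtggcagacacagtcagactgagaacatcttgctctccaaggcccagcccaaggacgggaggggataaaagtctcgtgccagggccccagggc
Krt8: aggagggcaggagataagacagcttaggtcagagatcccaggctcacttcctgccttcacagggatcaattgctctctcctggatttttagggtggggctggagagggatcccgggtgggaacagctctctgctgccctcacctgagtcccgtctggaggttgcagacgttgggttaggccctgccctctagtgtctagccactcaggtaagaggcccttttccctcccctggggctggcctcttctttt
Krt18: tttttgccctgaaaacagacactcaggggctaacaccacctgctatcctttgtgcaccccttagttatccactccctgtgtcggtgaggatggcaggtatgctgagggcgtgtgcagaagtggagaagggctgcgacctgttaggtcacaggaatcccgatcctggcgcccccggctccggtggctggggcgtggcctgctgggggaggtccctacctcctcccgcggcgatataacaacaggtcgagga

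The GC-rich palindrome GGGGCCCC, of the kind Zac1 is reported to bind, was searched for in the same window and was found in 0 of the 4 sequences and in 0.889% of 32851 RefSeq promoters. The G-rich repeat GGGGNGGGG on both strands had 7 overlapping matches before Krt79 and 0 before Krt78, Krt8 and Krt18, and 20.6% of the promoters held it. Over all members, 36 promoters of 35 genes were at hand, of which 1 held GGGGCCCC and 2 held GGGGNGGGG. The palindrome lay before Krt75, a hair follicle keratin with 2 control and 6 Zac1 counts, and the repeat lay before Krt75 and Krt79. A match describes letters in the window and does not show binding.

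Other members of the stratified and epidermal group gave values but no calls. Krt10, the type I chain of the suprabasal epidermis, had a level near that of Krt18, at 5.76, 4.97, 6.03 and 4.61 CPM in the controls and 5.45, 4.79, 4.75 and 5.04 CPM with Zac1. Its groups overlapped (log2 -0.09 ± 0.11, edgeR adjusted p = 0.958). Krt10 overlaps an unnamed gene on the opposite strand over 146 bases, and the strand setting of the counting is not given, so a small part of its reads is uncertain. Its usual partner Krt1 had 2 counts in all and Krt2 had 3.

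Krt80, a type II chain found near desmosomes in many epithelia, did not pass the filter on low counts and was not tested. It had 3, 8, 5 and 5 control counts and 9, 9, 12 and 33 with Zac1, so most of its increase lay in Zac1 library 5. Without a filter the log2 difference was 1.28 ± 0.49 (edgeR adjusted p = 0.345), and it was 0.66 without that library (edgeR adjusted p = 0.869). Krt80 overlaps another gene on the opposite strand over 263 bases.

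The basal pair was barely detected. Krt5 had 3 to 7 counts per control library and 4 to 10 with Zac1, and Krt14 had 2 control counts and 5 with Zac1. Krt15, a type I basal chain, had 11 and 19 counts. Among keratins of mucosa and cornea, Krt13 had 15 control counts and 8 with Zac1, Krt24 had 0 and 4, and Krt12 and Krt76 had 0 in all. The regulator of basal keratinocytes, Trp63, had 1 control count and 2 with Zac1. On the keratinocyte list 6 of 12 genes had a control mean under 0.1 CPM, 0 of 4 tested were called, and the summed level was 17.9 to 20.2 CPM in the controls and 17.9 to 19.4 CPM with Zac1.

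Keratins of hair and its root sheath were found at low levels. Krt25, a type I chain of the inner root sheath, had 0.673, 1.19, 0.816 and 1.14 CPM in the controls and 1.20, 0.936, 0.891 and 1.35 CPM with Zac1 (log2 0.20 ± 0.24, edgeR adjusted p = 0.957). Of its 50-base windows, 10.9% occur in transcripts of other genes, chiefly Krt27 and Krt28. Krt222, a keratin-like gene at the start of the chromosome 11 cluster, gave 0.646 ± 0.145 CPM and 0.785 ± 0.0936 CPM (log2 0.29 ± 0.24, edgeR adjusted p = 0.928). The other root sheath members, with 0 to 19 counts in all, were not tested.

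Krt35, a type I chain of the hair shaft, was the untested member with the most counts (89 in all). It had 8, 10, 19 and 18 control counts and 3, 5, 14 and 12 with Zac1, which is 0.426 ± 0.194 CPM against 0.209 ± 0.123 CPM. The groups overlapped, and without a filter the log2 difference was -0.98 ± 0.45 (edgeR adjusted p = 0.588). Summed over 15 hair keratins, the control libraries held 0.643 to 0.883 CPM and the Zac1 libraries 0.430 to 0.578 CPM, and Krt35 alone gave 55 of the 100 control counts and 34 of the 82 with Zac1. Summed over 6 keratins of skin appendages and wounds (Krt6a, Krt6b, Krt16, Krt17, Krt42 and Krt75), the controls held 0.0628 to 0.117 CPM and the Zac1 libraries 0.145 to 0.215 CPM, from 12 and 30 counts. The hair and appendage sums thus did not overlap between groups, in opposite directions. The sums of the simple, suprabasal, mucosal, basal and inner root sheath keratins did overlap. No sum was tested, and 5.79% of all tested genes had groups that did not overlap. Krt17, induced in injured epidermis, had 2 control counts and 10 with Zac1, and Krt16 had 2 and 6.

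Of the 44 untested members, 36 had a count, of which 20 had a higher mean level with Zac1 and 16 a lower one. They held 234 counts in the controls and 298 with Zac1. Without a filter edgeR called 0 of these 36, although Krt35 and Krt80 had a raw p under 0.05. Reads of the near-identical Krt6a and Krt6b, of Krt31 and Krt34 and of Krt81 and Krt86 cannot be told apart with certainty, as 62.0%, 28.1% and 43.5% of the windows of the first of each pair occur in transcripts of other genes.

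The family as a whole took 0.0277% to 0.0321% of the reads in the controls and 0.0247% to 0.0317% with Zac1. Krt7 and Krt8 together accounted for 94.9% to 95.5% of keratin reads in the controls and 93.6% to 94.9% with Zac1. These are shares of reads, which long transcripts raise. The share of Krt18 was 1.70% to 2.09% in the controls and 2.05% to 2.59% with Zac1.

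Structures that anchor keratin filaments were described from lists of their genes. Desmosomes join the filaments of adjacent cells, and of 17 desmosome genes 9 were tested, 1 was called higher and 0 lower, beside 2.15% and 0.0349% of all tested genes. That gene was Pkp3, a plakophilin of the desmosomal plaque, at 0.142 ± 0.0629 CPM in controls and 0.547 ± 0.142 CPM with Zac1 (log2 1.89 ± 0.37, edgeR adjusted p = 0.0108). Like Krt78 and Krt79, it passed the filter through the Zac1 libraries alone and lies among the genes under 0.2 CPM in controls, of which 80.2% were called higher, so its call carries no weight for the list. The better expressed Dsg2, a desmosomal cadherin, and Pkp4 differed by log2 0.07 ± 0.05 and -0.07 ± 0.06 (edgeR adjusted p = 0.875 and 0.904).

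Among hemidesmosome genes and plakins, which tie keratins to the basement membrane and the cell cortex, 2 of 10 tested were called higher and 0 lower, against the same 2.15% and 0.0349%. Ppl, the plakin periplakin, which binds Krt8 and other intermediate filaments, rose from 22 ± 1.30 to 30.6 ± 0.487 CPM (log2 0.48 ± 0.06, edgeR adjusted p = 0.000218). Unlike the 2 called keratins it was well expressed in the controls. Col17a1, the transmembrane collagen of hemidesmosomes, was the other (log2 4.46 ± 0.40, edgeR adjusted p = 1.07e-05), from 7 control counts, and the limit given for Pkp3 holds for it too. Dst and Macf1 differed by log2 0.04 ± 0.06 and 0.15 ± 0.05 (edgeR adjusted p = 0.962 and 0.295).

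No gene of the other epidermal lists was called. Of 22 cornified envelope measured genes 5 were tested and 0 called, with Sbsn at log2 0.12 ± 0.10 and Tchh at -0.16 ± 0.19 (edgeR adjusted p = 0.925 and 0.954), and 14 of the 22 had a control mean under 0.1 CPM. Of 14 epithelial transcription factors 10 were tested and 0 called, among them Elf3 (log2 0.04 ± 0.11, edgeR adjusted p = 0.983). Of 11 genes listed as keratin partners 9 were tested and 0 called, with Pnn at -0.06 ± 0.06 and Krtcap2 at -0.20 ± 0.18 (edgeR adjusted p = 0.943 and 0.938). That list is loose, and Krtcap2 is named after keratinocytes, not after keratin. By raw p under 0.05 in edgeR, 1 transcription factor was higher and 0 genes of the other 2 lists differed, and DESeq2 and limma-voom called 0 genes of the 3 lists.

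Among the 18 genes of other intermediate filaments, 14 were tested, 2 were called higher and 0 lower, against 2.15% and 0.0349% of all genes, and DESeq2 called 3 higher (2.38% of all genes). Des, the filament of muscle, had 6 control counts and 254 with Zac1 (log2 5.02 ± 0.47, edgeR adjusted p = 1.66e-05), and Nefh, the heavy neurofilament chain, had a log2 difference of 1.15 ± 0.05 (edgeR adjusted p = 3.36e-09). Des too passed the filter through the Zac1 libraries alone and was under 0.2 CPM in controls, whereas Nefh stood at 31.3 ± 0.60 CPM there. Vim, the filament of mesenchymal cells, had 2 control counts and 12 with Zac1. Nefm and Nes differed by log2 -0.13 ± 0.08 and 0.06 ± 0.05 (edgeR adjusted p = 0.806 and 0.932). Of the fibroblast list, which also holds Vim, 1 of 4 tested genes was called higher and 0 lower, against the same 2.15% and 0.0349%. That gene was Col1a1, with 44 control counts and 166 with Zac1 (log2 1.62 ± 0.31, edgeR adjusted p = 0.00766). The sum of the fibroblast list was 2.25 to 3.21 CPM in the controls and 2.46 to 3.80 CPM with Zac1. On the acinar list 0 of 3 tested genes were called, and its sum was 61.0 to 84.4 CPM and 60.6 to 83.2 CPM.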

How the data were processed

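The deposited data are unnormalized read counts per gene for 8 libraries, made by the authors, and every column matched 1 sample title. The submitters' processing notes name mm9, HTSeq 0.6.1p1, TopHat2 2.1.1, Bowtie2 2.2.8, FastQC and bcl2fastq 2.17. For the annotation and the strand setting of the counting the sources used here give nothing. From the counts, edgeR 4.0.16 in R 4.3.3 was run on all genes (filterByExpr with the groups, TMM, robust quasi-likelihood F test on the group), with Benjamini-Hochberg adjustment over 14331 genes and a threshold of 0.05. Alternatives were DESeq2 1.42.0, limma-voom (limma 3.58.1), library totals, other filters, a replicate block and libraries left out. The edgeR steps were tested on simulated data. Changes were planted there only in genes with more counts than Krt79 and Krt78, so calls at their level were not covered. Transcript lengths, shared windows and overlaps came from GENCODE M21, where 51 of 52 members matched, and gene order and promoters from RefSeq GRCm38.p6. Counting intervals (95%, exact) cover counting error only, since reads are not independent molecules.

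The members and lists were chosen with earlier results of these data known. The genes named are Krt79, Krt78, Krt8 and Krt18, called keratins, keratins of at least 1 CPM, others by their counts, and from the lists the called genes and up to 2 tested genes with the highest CPM. Sox9, Trp63, Vim, the flanking genes and both motifs were chosen after values were seen.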

Additional observations from a re-analysis of the deposited data

Results flagged for a closer look

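In the Zac1 group Krt80 stood at 0.780 CPM in library 5, apart from the other 3 Zac1 libraries at 0.215 to 0.289 CPM. Plagl1 itself was apart in Zac1 library 1, at 5786 CPM against 4117 to 4368 CPM in the other 3. Of 36 groups of 4 libraries examined for a lone library, chance alone would mark about 1 in 20. The level of Krt18 was also highest in Zac1 library 1, at 8.17 CPM. Whether the amount of Plagl1 in a library had a part in these levels was not tested.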

How the results depend on the processing

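The count of keratins called higher was 2 with limma-voom, library totals, no filter, the replicate block and without both libraries numbered 5. It was 1 in DESeq2, where Krt78 had an adjusted p of 0.0552, and 0 when the filter asked for a mean of 10 counts or more, since neither Krt78 nor Krt79 then entered the test. It was 1 to 2 when single libraries were left out. The count of keratins called lower was 0 under each of these. Without single libraries the log2 difference of Krt79 was 3.10 to 3.94 and stayed past the threshold, and that of Krt78 was 1.62 to 2.06 and was lost in 5 of 8 cases. Of the lists, with the replicate block 1 gene listed as a keratin partner was called lower. In that fit 3 instead of 2 genes were called higher among hemidesmosome genes and plakins and among other intermediate filaments. The former count was also 3 without control library 5 and the latter also 3 in DESeq2, and the counts of the desmosome, cornified envelope and epithelial transcription factor lists were the same under each alternative. Same-numbered libraries deviated together in replicates 1, 3 and 5 (correlations 0.5, 0.333 and 0.555 over 12219 genes). They hardly did in replicate 2 (0.0774), which correlated more with another number. The main fit did not pair libraries, because the labels do not say what the number marks. Its errors therefore still hold this shared deviation. With the block the SE was 0.04 instead of 0.10 for Krt7, but 0.62 instead of 0.55 for Krt79. With the replicate block 512 genes were called higher and 116 lower, against 308 and 5, and Krt79 and Krt78 were called (log2 3.46 and 1.82, edgeR adjusted p = 0.000343 and 0.0132). With the block Krt7 had a log2 difference of -0.10 with a raw p of 0.0137 (edgeR adjusted p = 0.167) and Krt18 one of 0.24 with a raw p of 0.0269 (edgeR adjusted p = 0.242), so neither was called. Depth limits the account of most members: 30 of 52 had under 10 counts in all.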
